A study of Mus musculus with 15 samples.

Results

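The response of the thymus to gp33 was measured in mice of the strain NOD.Ln82-LCMV, by setting 5 mice given gp33 against 4 mice given a control peptide, 9 of the 15 arrays of the study. gp33 is a viral peptide, from the glycoprotein of lymphocytic choriomeningitis virus, which Db, a class I molecule, presents to CD8 T cells. The control peptide also binds Db. All mice were 5-week-old females, received 0.5 µg of peptide into a vein and were killed 2 h later, when total RNA was taken from the whole thymus. The other 6 arrays came from NOD.LCMV mice, 3 with each peptide, and served as a comparison. The members are the arrays carrying the strain and peptide labels, and the response is described across 19938 genes, each represented by 1 probe set. The series asks about Nfkbid, a gene of the diabetes locus Idd7, in the removal of CD8 thymocytes of NOD mice. What the Ln82 segment holds, which receptor the T cells carry and whether arrays were run in batches is not given in the labels. A batch tied to the peptide cannot be told apart from the peptide. Values are log2 levels on an array that reads whole transcripts, and a difference is always gp33 minus control with its standard error unless stated otherwise.

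A thymocyte whose antigen receptor binds peptide strongly receives a signal that runs through calcium, MAP kinases and NF-κB. Within hours it induces the surface protein CD69, the nuclear receptors of the Nr4a family and the factors of the Egr family. In the thymus a strong signal can end in death, for which the BH3-only protein Bim, encoded by Bcl2l11, is a known mediator. NF-κB dimers are held in check by the IκB proteins, and Nfkbid encodes an atypical, nuclear member of that family. In bulk tissue, a lower level because there were fewer cells of a type and a lower level because each cell held less RNA cannot be told apart.

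The arrays carried the markers of the labelled tissue. Cd3e, a chain of the T-cell receptor complex, lay between 12.83 and 12.99 on the 9 NOD.Ln82-LCMV arrays. Cd4 lay between 12.16 and 12.44, and Cd8a between 12.32 and 12.66. Foxn1, the defining transcription factor of thymic epithelium, lay between 8.5 and 9.03. No pair of these 9 arrays shared more than 5.91% identical values.

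Control mouse 1 stood apart from the other NOD.Ln82-LCMV mice in many genes that differed between the strains. Over 365 genes whose mean differed by at least 0.5 between the NOD.LCMV controls and the other 3 NOD.Ln82-LCMV controls, its median position was 0.57 of the way to NOD.LCMV. The other 3 controls lay between 0.038 and 0.17 on that scale, each measured over its own set of 343 to 444 genes, and the 5 gp33 mice between -0.086 and 0.043. Trbv1, a variable segment of the T-cell receptor β chain, measured 10 in control mouse 1 and between 12.54 and 12.66 in the other 8 mice. The 6 NOD.LCMV mice lay between 8.5 and 10.31. Kcnma1, a potassium channel, measured 10.14 in control mouse 1 and between 11.54 and 12.57 in the other 8. Cd226, an activating receptor of T and natural killer cells, measured 10.1 against 8.34 to 8.64, with the NOD.LCMV controls between 10.05 and 10.18. Other genes that differed between the strains did not follow: Snora23 measured 10.73 in control mouse 1, inside the 10.73 to 10.87 of its own strain, with NOD.LCMV mice between 8.97 and 9.75. These 4 genes were chosen after their values were seen. No label sets this mouse apart. Many results are given with and without it, and a NOD.Ln82-LCMV value given once includes it. In mean absolute deviation from the group mean over all genes, gp33 mouse 5 lay furthest of all arrays. It measured 0.111, beside 0.07599 for control mouse 1, and most values below include gp33 mouse 5.

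**Figure D1:**
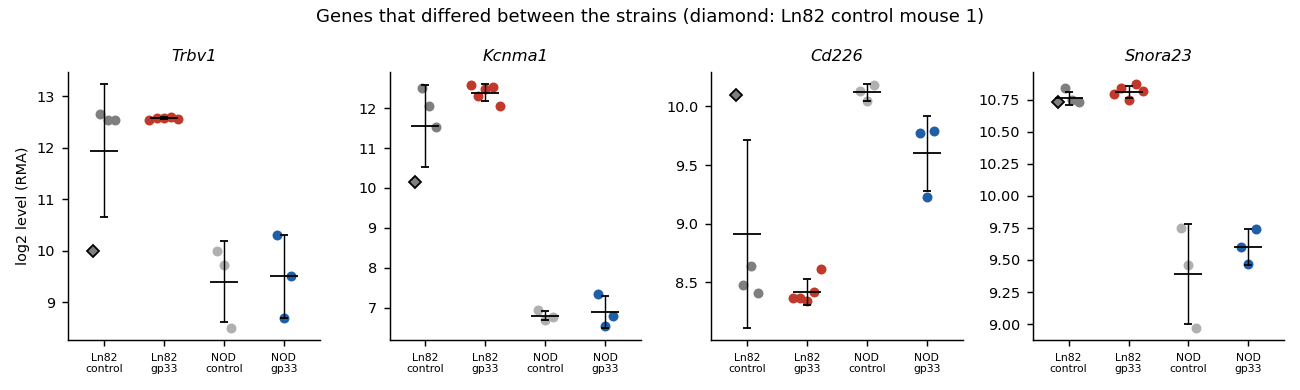
Log2 level (y axis) of Trbv1, Kcnma1, Cd226 and Snora23 in each mouse, by strain and peptide (x axis; Ln82 stands for NOD.Ln82-LCMV and NOD for NOD.LCMV), with the group mean and SD as black bars. Control mouse 1, drawn as a diamond, lies with NOD.LCMV or toward it in the first 3 panels and with its own strain in Snora23.

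Across all genes the response was small. A single gene, Cd69, passed an adjusted p of 0.05 in limma, which is 0.00502% of the genes tested. At an unadjusted p under 0.05, 528 genes were higher with gp33 (2.65%) and 662 were lower (3.32%), so 44.4% of these genes were higher. After median centring of the arrays the counts were 327 and 995, and 24.7% were higher. Without control mouse 1 they were 310 higher (1.55%) and 331 lower (1.66%). Without gp33 mouse 5 they were 722 higher and 781 lower. In 133 genes (0.667%) all 5 gp33 mice lay above all 4 controls, and in 169 genes (0.848%) all lay below. In NOD.LCMV, 1453 genes rose (7.29%) and 2490 fell (12.5%) at the adjusted threshold, although that strain had only 3 mice per peptide. The responses of the strains differed in 1740 genes (8.73%) by the test of the difference itself.

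Cd69, the early activation antigen that retains thymocytes in the tissue, rose in the thymus of NOD.Ln82-LCMV mice. The 4 control mice measured 11.03, 10.95, 10.92 and 10.95, and the 5 gp33 mice 11.54, 11.27, 11.38, 11.44 and 11.5. Every gp33 mouse lay above every control, and control mouse 1 was not low for this gene. The rise was 0.46 ± 0.06, or 1.38-fold with a 95% interval of 1.26 to 1.5, at an adjusted p of 0.0215 in limma and an exact two-sided permutation p of 0.0159, the smallest that 5 mice against 4 allow. Leaving out control mouse 1 gave 0.49 and an adjusted p of 0.027. Leaving out control mouse 2, 3 or 4, or gp33 mouse 1, 3, 4 or 5, ended the call, with adjusted p between 0.0582 and 0.12 and differences between 0.43 and 0.47. The call also ended after median centring (adjusted p 0.0608), with only the groups compared (0.119) and with a 1.5-fold limit (1.0). In NOD.LCMV mice Cd69 rose by 1.98, and the difference between the responses, 1.51 ± 0.09, passed the test at an adjusted p of 8.45e-08.

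Among signal proteins and transcription factors of activated T cells, several had groups that did not overlap but did not pass the adjusted threshold. Tagap, which encodes a GTPase-activating protein induced on T-cell activation, measured 8.69, 9.65, 9.66 and 9.59 in the controls and 10.82, 10.39, 10.24, 10.38 and 10.87 with gp33. All gp33 mice were higher, and control mouse 1 was the lowest of all. The difference was 1.14 ± 0.18 at an adjusted p of 0.0717, and without control mouse 1 it was 0.91 and passed at 0.027. Gem, a small GTP-binding protein induced by mitogens, was between 7.79 and 8.11 in the controls and between 8.35 and 8.64 with gp33, a difference of 0.53 ± 0.09 at an adjusted p of 0.115. Irf4, a transcription factor whose level follows receptor signal strength, was between 7.49 and 7.9 in the controls and 8.05 to 8.54 with gp33, a difference of 0.56 ± 0.12 at an adjusted p of 0.219. Sh3bp2, an adaptor of antigen receptor signalling, differed by 0.36 ± 0.06 at 0.115, again with no overlap. Of the 20 genes of activation factors and signal proteins, 17 had the higher mean with gp33 and 7 an unadjusted p under 0.05 in that direction, or 3 without control mouse 1, beside 2.65% and 1.55% of all genes. Their median difference was 0.14, and 0.08 without control mouse 1, beside 0.0 over all genes. Tbx21, encoding T-bet, had risen by 3.12 in NOD.LCMV and differed here by 0.17 ± 0.11, or 0.08 without control mouse 1.

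**Figure D2:**
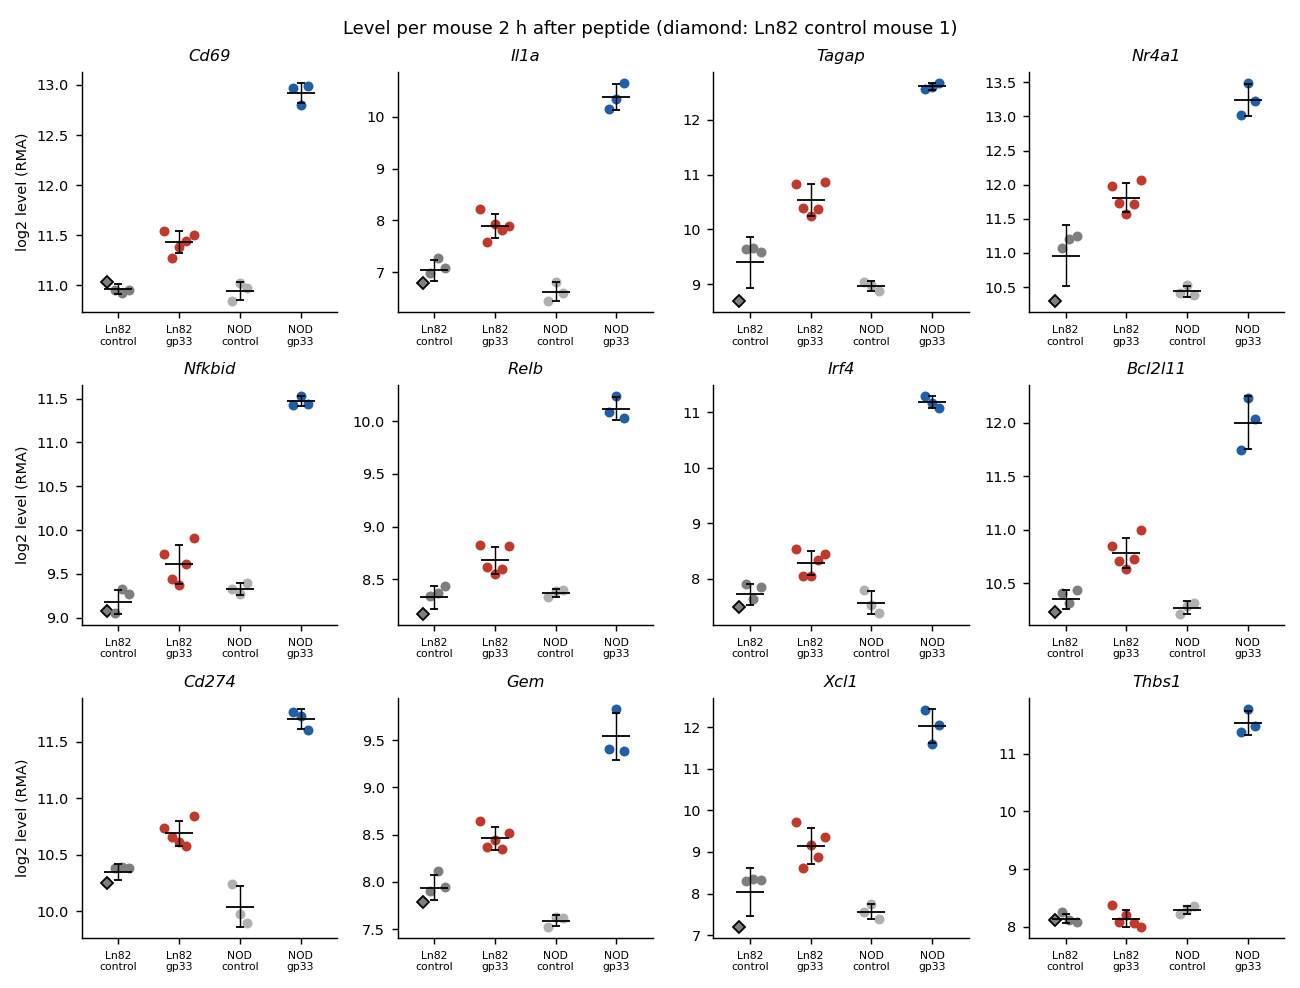
Log2 level (y axis, scaled per panel) of 12 genes in each mouse by strain and peptide (x axis; Ln82 stands for NOD.Ln82-LCMV and NOD for NOD.LCMV), with the group mean and SD as black bars and control mouse 1 as a diamond. In 11 of the panels every NOD.Ln82-LCMV gp33 mouse lies above its controls and far below the NOD.LCMV gp33 mice, and Thbs1 overlaps between the peptides in NOD.Ln82-LCMV.

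The immediate early factors were led by the Nr4a family. Nr4a1, which encodes Nur77, measured 10.29, 11.07, 11.21 and 11.25 in the controls and 11.98, 11.73, 11.57, 11.72 and 12.07 with gp33. The groups did not overlap, the difference was 0.86 ± 0.17 at an adjusted p of 0.219, and it was 0.64 without control mouse 1. Nr4a3 differed by 0.89 ± 0.2 and Nr4a2 by 0.45 ± 0.13, both without overlap, or by 0.63 and 0.38 without control mouse 1. Egr2 measured 9.45, 8.94, 9.14 and 9.25 in the controls and 9.35 to 9.81 with gp33, so here control mouse 1 was the highest control and the groups overlapped, with a difference of 0.43 ± 0.1. Egr3 differed by 0.29 ± 0.09. Members of the AP-1 family were nearer to 0: Fos differed by 0.14 ± 0.17, Jun by 0.13 ± 0.07 and Junb by 0.15 ± 0.07, and in NOD.LCMV the same genes rose by 1.99, 1.92 and 1.59. Atf3 differed by 0.24 ± 0.08 beside a rise of 3.57 in NOD.LCMV. Of the 24 immediate early genes, 21 had the higher mean with gp33, 6 had an unadjusted p under 0.05 and 3 did not overlap. Over all genes these shares were 50.4%, 2.65% and 0.667%. The median of the list was 0.11.

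NF-κB genes had the largest share of members at an unadjusted p under 0.05 among the 24 lists, 13 of 18 higher and 0 lower, beside 2.65% and 3.32% of all genes. In 11 of the 18 all gp33 mice lay above all controls, beside 0.667% of all genes, and 11 were at an unadjusted p under 0.05 without control mouse 1. Their median difference was 0.19, and 0.15 without that mouse. Nfkbid, on chromosome 7, measured 9.08, 9.06, 9.33 and 9.27 in the controls and 9.73, 9.44, 9.37, 9.61 and 9.91 with gp33. Every gp33 mouse lay above the controls, with the nearest pair at 9.33 and 9.37. The difference was 0.43 ± 0.09, or 1.34-fold with a 95% interval of 1.17 to 1.54, at an adjusted p of 0.303 in limma, against a rise of 2.13 in NOD.LCMV. Relb and Rel, subunits of NF-κB, differed by 0.35 ± 0.07 each without overlap. Nfkb2, the precursor of a further subunit, differed by 0.38 ± 0.1, and Bcl3, an atypical IκB protein, by 0.45 ± 0.1. Among targets and inhibitors, Birc3, which blocks death signalling, differed by 0.24 ± 0.05, Icam1, an adhesion molecule, by 0.25 ± 0.06, and Tnfaip3, which encodes the inhibitor A20, by 0.17 ± 0.04. Rela, by contrast, differed by 0.0 ± 0.04, Tnip1 by 0.01 ± 0.05 and Bcl10 by -0.02 ± 0.06. All 18 had risen in NOD.LCMV, Rela by 0.36.

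The promoter windows of the higher genes were searched for 6 motifs on both strands, using RefSeq sequences of GRCm38.p6 that run from 250 bases before to 50 bases after a transcription start. Of the 15 higher genes with the smallest p, 12 had a window, and 4 of them held a match to the NF-κB site by its usual consensus. Counted by gene in the same way, 1707 of the 15563 measured genes with a window held a match. The 250 bases before the start are shown for Nfkbid, from the second of its 3 windows, at chr7:30422156-30422405 on the plus strand, and for Rel, at chr11:23770970-23771219 on the minus strand. They are shown because both genes belong to the pathway and hold a pair of matches each. Capitals mark the matches, which begin at positions -226 and -181 for Nfkbid and, overlapping, at -92 and -91 for Rel, counted back from the start.
Nfkbid: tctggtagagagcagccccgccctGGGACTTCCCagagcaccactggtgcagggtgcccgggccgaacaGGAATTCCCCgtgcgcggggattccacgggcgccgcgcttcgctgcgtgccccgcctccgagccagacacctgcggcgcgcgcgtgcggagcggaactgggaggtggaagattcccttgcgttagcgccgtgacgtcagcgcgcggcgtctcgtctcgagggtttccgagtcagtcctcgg
Rel: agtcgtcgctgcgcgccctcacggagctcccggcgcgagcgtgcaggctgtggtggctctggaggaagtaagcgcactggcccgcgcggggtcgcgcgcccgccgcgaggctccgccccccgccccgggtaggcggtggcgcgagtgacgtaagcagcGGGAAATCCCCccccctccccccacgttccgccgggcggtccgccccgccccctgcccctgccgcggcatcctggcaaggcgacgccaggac
The same Nfkbid window held a cAMP response element (TGACGTCA). Over all measured genes with a window, 9.54% of 19116 windows held an NF-κB match. Of the windows of genes that rose at least 2-fold in NOD.LCMV, 36 of 180 did. Among those genes, 23 of 99 windows (23.2%) of the genes that were also higher in NOD.Ln82-LCMV at an unadjusted p under 0.05 held a match, and 13 of 81 windows of the rest. The AP-1 motif (TGANTCA) stood in 10.1% and 14.8% of these windows, beside 6.88% of all windows. The EGR element (GCGNGGGCG) stood in 12.1% and 7.41% beside 8.17%. The CArG box stood in 6.06% and 1.23% beside 1.41%, the cAMP response element in 1.01% and 3.7% beside 2.37%, and the NGFI-B element (AAAGGTCA) in 1.01% and 0.0% beside 1.29%. Windows of the same gene were counted separately, and the 6 CArG windows behind the 6.06% came from 3 genes. A match is a description of the letters, and these shares were not tested.

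Surface proteins of activated T cells had mostly higher means with gp33. Of 20 measured, 8 were higher at an unadjusted p under 0.05, Cd69 among them, 0 were lower and 5 did not overlap, beside 2.65%, 3.32% and 0.667% of all genes. Their median was 0.12, and 0.14 without control mouse 1. Cd274, which encodes the inhibitory ligand PD-L1, measured 10.25 to 10.39 in the controls and 10.58 to 10.84 with gp33, a difference of 0.34 ± 0.07. Tnfrsf9, which encodes the costimulatory receptor 4-1BB, differed by 0.7 ± 0.19 without overlap, and by 0.44 without control mouse 1, which measured 8.3 against 9.2 to 9.37 in the other controls. Cd5 and Cd6, which tune receptor signals, differed by 0.24 ± 0.08 and 0.22 ± 0.07. Il2ra differed by 0.07 ± 0.13 and Cd44 by -0.07 ± 0.1, or 0.02 and 0.04 without control mouse 1, although both had risen in NOD.LCMV, by 1.67 and 1.14.

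Among cytokine and chemokine genes, Xcl1 and Il1a had the largest differences in their lists. Il1a, an inflammatory cytokine, measured 6.8, 6.98, 7.28 and 7.09 in the controls and 8.22, 7.58, 7.94, 7.82 and 7.89 with gp33. The groups did not overlap, and the difference of 0.85 ± 0.13 had an adjusted p of 0.0717. Xcl1, the chemokine that draws cross-presenting dendritic cells, measured 7.19, 8.31, 8.34 and 8.33 in the controls and 9.73, 8.61, 9.17, 8.88 and 9.37 with gp33. Its difference was 1.11 ± 0.25, or 0.83 without control mouse 1, the lowest mouse. Cxcl10 and Cxcl9, chemokines induced by interferon, differed by 0.73 ± 0.18 and 0.59 ± 0.16, with overlap, and by 0.5 and 0.42 without that mouse. Ccl3 lay at 7.0 in control mouse 1, 8.38 to 8.91 in the other controls and 8.57 to 9.46 with gp33. Its difference of 0.66 ± 0.3 was 0.25 without that mouse. Ifng, Tnf and Gzmb, effector genes of cytotoxic cells, differed by 0.17 ± 0.12, 0.16 ± 0.13 and 0.15 ± 0.12. The values were 0.13, 0.24 and 0.08 without control mouse 1, and in NOD.LCMV the genes rose by 2.47, 2.39 and 2.06. Il6 differed by 0.01 ± 0.1 beside a rise of 2.55. Of the 20 T-cell cytokines, 19 had the higher mean but 2 had an unadjusted p under 0.05, or 1 without control mouse 1. Of the 16 inflammatory genes all had a mean at or above the controls and 7 were at that p, or 5 without control mouse 1. Over all genes 50.4% had the higher mean, and 2.65% were higher at that p, or 1.55% without control mouse 1.

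Genes of death and of feedback had medians near 0, and Bcl2l11 was among the higher ones. Bcl2l11 measured 10.23, 10.41, 10.32 and 10.44 in the controls and 10.63 to 11 with gp33. The groups did not overlap, and the difference was 0.43 ± 0.09, or 1.35-fold, at an adjusted p of 0.219 in limma. Gadd45b, a stress-induced gene, differed by 0.56 ± 0.17 with overlap, and by 0.38 without control mouse 1. Bbc3 and Pmaip1, which encode the BH3-only proteins Puma and Noxa, differed by 0.09 ± 0.05 and 0.15 ± 0.08. Fas, the death receptor, was lower by a difference of -0.17 ± 0.06 at an unadjusted p of 0.0162. It rose by 0.37 in NOD.LCMV, and the responses differed at an adjusted p of 0.00276. Of 17 death regulators, 4 (23.5%) were higher and 1 (5.88%) lower at an unadjusted p under 0.05, with a median of 0.04. Without control mouse 1 these counts were 3 and 0, and Fas differed by -0.13. Over all genes the shares higher and lower were 2.65% and 3.32%, or 1.55% and 1.66% without that mouse. Among feedback inhibitors, Dusp5, a phosphatase of ERK, differed by 0.43 ± 0.12 without overlap, while Dusp6 differed by -0.12 ± 0.08, or -0.06 without control mouse 1, and Spry1 by 0.17 ± 0.07 beside a rise of 2.57 in NOD.LCMV. Of 22 feedback genes, 5 were higher and 1 lower at that p, with a median of 0.02, and without control mouse 1 the counts were 2 and 0.

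The genes that rose at least 2-fold in NOD.LCMV, all called there at the adjusted threshold, were followed in the NOD.Ln82-LCMV mice. The size of the rise in NOD.LCMV uses no NOD.Ln82-LCMV array. The choice was not fully independent of those arrays, because the variances behind the adjusted p and the choice of probe sets used the arrays of both strains. Of these 195 genes, 184 (94.4%) had the higher mean with gp33, and 90 (46.2%) had an unadjusted p under 0.05 in that direction and 4 (2.05%) in the other. In 45 (23.1%) all gp33 mice lay above all controls. Over all genes these shares were 50.4%, 2.65%, 3.32% and 0.667%. Without control mouse 1, 179 of the 195 had the higher mean and 59 (30.3%) were higher at an unadjusted p under 0.05, beside 1.55% of all genes. The mean of the 195 genes was 8.14 in control mouse 1, 8.31 to 8.34 in the other controls and 8.42 to 8.58 in the gp33 mice, so the groups did not overlap. In NOD.LCMV the same mean was 8.14 to 8.22 in controls and 9.83 to 9.93 with gp33. The median difference here was 0.17, and 0.13 without control mouse 1, which is a median of 11.1% of the log2 response in NOD.LCMV (quartiles 6.29% and 17.8%), or 8.64% without that mouse. These percentages compare log2 differences, and the genes were chosen for a large value in NOD.LCMV.

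**Figure D3:**
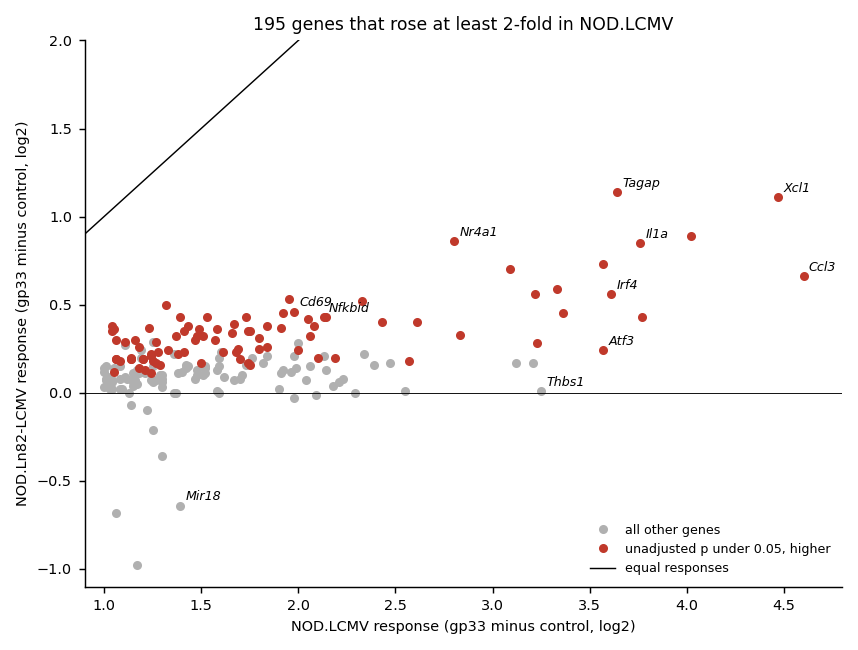
Response of each of the 195 genes in NOD.Ln82-LCMV (y axis, gp33 minus control, log2) against its response in NOD.LCMV (x axis, same unit), with genes higher at an unadjusted p under 0.05 in red and equal responses as a line. All 195 points lie below the line, and Thbs1 lies at 0.01 and Tagap at 1.14, with responses of 3.25 and 3.64 in NOD.LCMV.

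The 17 genes that rose by 3 or more in NOD.LCMV had a median of 0.56 and 14 were at an unadjusted p under 0.05. The 102 genes that rose by 1 to 1.5 had a median of 0.13. Across the 195 genes the responses correlated with Pearson's r of 0.565 and Spearman's rho of 0.425. Genes are not independent, and each response is measured against its own controls. Sh3bp2 reached 33.9% of its response in NOD.LCMV, Tagap 31.4%, Nr4a1 30.7%, Egr2 27.8% and Bcl2l11 25.1%, and 15 genes lay over 25%. These shares, the medians and the correlations include control mouse 1. Without it the differences were 0.32 for Sh3bp2, 0.91 for Tagap, 0.64 for Nr4a1, 0.51 for Egr2 and 0.39 for Bcl2l11. With it they were 0.36, 1.14, 0.86, 0.43 and 0.43 in the same order. Of the 195 genes 11 had a lower mean with gp33, and the most negative were Mir142, Mir181a-1 and Mir18, which rose by 1.17, 1.06 and 1.39 in NOD.LCMV and differed by -0.98, -0.68 and -0.64 here. Among the genes with the largest rises in NOD.LCMV, Thbs1, which encodes the matrix protein thrombospondin-1, rose by 3.25 in NOD.LCMV and differed by 0.01 ± 0.08 here, with controls at 8.11, 8.25, 8.11 and 8.08 and gp33 mice at 8.37, 8.08, 8.21, 8.06 and 8.0. Its difference turned to -0.02 after a second quantile normalization and to -0.01 after median centring. Ccn1, a matrix-associated growth regulator, differed by 0.17 ± 0.11, or 0.08 without control mouse 1, beside a rise of 3.21. The responses of the strains differed at an adjusted p under 0.05 in 192 of the 195 genes, a count that the choice of genes in NOD.LCMV helps to set. The exceptions were Pdcd1, Myo1e and Dusp4, with adjusted p of 0.056, 0.0703 and 0.104. They were named after their values were seen.

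Among genes other than small RNAs, those with lower levels and the smallest p after gp33 had small differences, and none passed the adjusted threshold. Smg1, a kinase of nonsense-mediated decay, measured 11.92, 11.79, 11.79 and 11.81 in the controls and 11.67, 11.61, 11.64, 11.66 and 11.61 with gp33. The groups did not overlap and the difference was -0.19 ± 0.03 at an adjusted p of 0.134. Rhoh, a GTPase needed for T-cell receptor signalling in thymocytes, differed by -0.21 ± 0.05, Adcy6, an adenylyl cyclase, by -0.27 ± 0.06 and Patz1, a zinc finger factor of T-cell development, by -0.17 ± 0.04, all without overlap. Without control mouse 1 the differences of Rhoh, Adcy6 and Patz1 were -0.16, -0.19 and -0.14. Rnf121 differed by -0.14 ± 0.04 and rose by 0.17 in NOD.LCMV, and these responses differed at an adjusted p of 0.00235. S1pr1, the receptor by which mature thymocytes leave the organ, measured 9.14, 8.8, 8.86 and 8.87 in the controls and 8.62 to 8.77 with gp33. Its difference of -0.21 ± 0.06 was -0.13 without control mouse 1, and it fell by 0.85 in NOD.LCMV. The 10 genes that fell at least 2-fold in NOD.LCMV all had lower means here, with a median of -0.22. That median was -0.1 without control mouse 1, which measured 10.34 for Tdrp and 8.15 for Klhl4, against 8.79 to 8.99 and 6.5 to 6.74 in the other controls.

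Several microRNA genes had lower levels after gp33, and none passed the adjusted threshold. Of 300 on the array, 28 (9.33%) were lower at an unadjusted p under 0.05, beside 3.32% of all genes, and 1 was higher, and in 14 (4.67%, beside 0.848% of all genes) every gp33 mouse lay below every control. Without control mouse 1, 19 (6.33%) were lower, and 1 was higher. Across the alternatives that tested all 300 with no fold limit, 19 to 35 were lower and 0 to 4 higher. The median over the 300 was -0.01, and 99 of them were brighter than the dimmest 33.3% of all genes, 14 of these 28 included. This group was looked at after its values were seen, and its probe sets read hairpin regions or the precursors around them, not mature microRNAs as such. In NOD.LCMV, 21 of the 300 rose and 1 fell at the adjusted threshold, beside 7.29% and 12.5% of all genes. The mature sequences below are those of the genes that share a seed, because 3 of the 28 carry the seed of the miR-15 and miR-16 family and 4 that of the miR-181 family. They come from RefSeq (GRCm38.p6), which held a sequence for 271 of the 300, and capitals mark the seed, bases 2 to 8.
mmu-miR-15a-5p: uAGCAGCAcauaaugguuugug
mmu-miR-15b-5p: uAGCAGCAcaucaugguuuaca
mmu-miR-16-5p: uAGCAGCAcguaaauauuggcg
mmu-miR-181a-5p: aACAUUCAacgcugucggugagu
mmu-miR-181b-5p: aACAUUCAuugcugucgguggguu
mmu-miR-181c-5p: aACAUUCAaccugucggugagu
The miR-15 and miR-16 family is known for restraint of the cell cycle and of Bcl2, and miR-181 for setting the sensitivity of thymocytes to antigen. Of the measured genes, 6 carry each of these seeds.

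Mir15a measured 10.51, 10.43, 10.43 and 10.36 in the controls and 10 to 10.35 with gp33. Every gp33 mouse was lower, and the difference was -0.29 ± 0.06 at an adjusted p of 0.219. Mir16-2 and Mir15b, which lie within Smc4, differed by -0.36 ± 0.06 and -0.8 ± 0.17 without overlap, while Smc4 itself differed by 0.01. Without control mouse 1 the differences of Mir16-2 and Mir15b were -0.32 and -0.62. Mir181b-2 measured 8.13, 7.59, 7.12 and 7.28 in the controls and 6.71, 7.06, 6.69, 6.64 and 6.51 with gp33, a difference of -0.81 ± 0.16 that was -0.61 without control mouse 1. Mir181b-1 differed by -0.57 ± 0.13 and Mir181a-1 by -0.68 ± 0.24. Mir142, a microRNA gene of blood cells, measured 8.2, 7.14, 6.73 and 6.77 in the controls and 6.39, 6.15, 6.14, 6.22 and 6.27 with gp33. Its groups did not overlap, and its difference of -0.98 ± 0.26 was -0.65 without that mouse. Mir350 had the smallest adjusted p, 0.0717, with -0.51 ± 0.08. Of the 28 genes, 16 lay within the span of another measured gene, strand not considered, and those hosts differed by between -0.24 and 0.04, 1 of them lower at an unadjusted p under 0.05. In NOD.LCMV 6 of the 28 rose and 0 fell at the adjusted threshold, beside 7.29% and 12.5% of all genes. The responses of the strains differed at an adjusted p under 0.05 in 11, beside 8.73% of all genes. The choice of the 28 for lower values in NOD.Ln82-LCMV helps to set that count. Mir18 differed by -0.64 ± 0.14 here and rose by 1.39 in NOD.LCMV. The 52 small nucleolar RNA genes had 1 higher and 1 lower at an unadjusted p under 0.05, beside 2.65% and 3.32% of all genes.

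**Figure D4:**
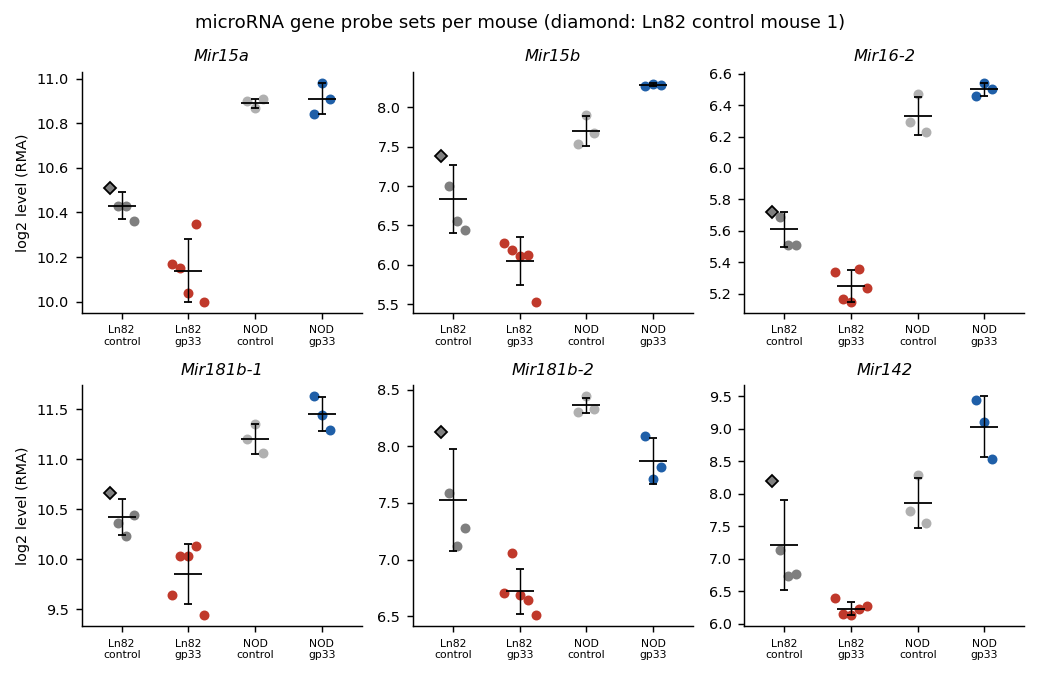
Log2 level (y axis, scaled per panel) of 6 microRNA gene probe sets in each mouse by strain and peptide (x axis; Ln82 stands for NOD.Ln82-LCMV and NOD for NOD.LCMV), with the group mean and SD as black bars and control mouse 1 as a diamond. In each panel all 5 NOD.Ln82-LCMV gp33 mice lie below all 4 controls, and control mouse 1 is the highest of these controls.

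Several marker lists of other cell types had medians that were lower without control mouse 1. Of 23 thymic epithelium genes, 22 had the higher mean with gp33 and 6 an unadjusted p under 0.05, with a median of 0.15. Without control mouse 1 the median was 0.1 and 0 were at that p. Over all genes 50.4% had the higher mean, and 2.65% were higher at that p, or 1.55% without that mouse. Foxn1 differed by 0.19 ± 0.08, or 0.11 without control mouse 1, and fell by 0.33 in NOD.LCMV. In the list 5 genes (21.7%) responded differently in the strains, all with the lower response in NOD.LCMV. Over all genes 8.73% responded differently, and 850 of 19938 had the lower response in NOD.LCMV. The summed level of the list, as a mean per mouse, lay between 9.7 and 9.96 in the controls and 9.82 and 10.1 with gp33, with overlap. All 13 B-cell genes had the higher mean, with a median of 0.18 that was 0.04 without control mouse 1. Their mean was 7.79 in that mouse, 8.35 to 8.56 in the other controls and 8.35 to 8.79 with gp33. Interferon-stimulated genes had 5 of 23 higher and a median of 0.09, which became 0 of 23 and 0.01 without it.

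Granulocyte genes had much the same values with and without that mouse. All 15 had a mean at or above the controls, 6 at an unadjusted p under 0.05 with it and 5 without it, with medians of 0.15 and 0.13. Their mean per mouse lay between 6.88 and 7.11 in the controls and 7.07 and 7.38 with gp33, with overlap. Lcn2, which binds bacterial iron carriers, differed by 0.61 ± 0.21, and S100a8, an abundant neutrophil protein, by 0.18 ± 0.06. Their part in the levels of Il1a and the other inflammatory genes was not tested. Dendritic cell and macrophage genes had 0 of 24 higher and 1 lower, Clec9a, at -0.22 ± 0.09, or 0 lower without control mouse 1. Natural killer and γδ T-cell genes had 2 of 11 higher, or 3 without it. Over all genes 2.65% were higher and 3.32% lower at an unadjusted p under 0.05, or 1.55% and 1.66% without control mouse 1.

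Thymocyte lists had medians just below 0. Of 19 double-positive genes 17 had the lower mean, 1 at an unadjusted p under 0.05, with a median of -0.09. The median was -0.05 and 0 were at that p without control mouse 1. Of 17 genes of mature single-positive cells 3 were lower and 1 higher, with a median of -0.08, and without it 2 were lower and 0 higher, with a median of -0.01. Foxo1, which sustains the exit programme of these cells, differed by -0.19 ± 0.06, or -0.11 without control mouse 1. Of 21 cell cycle genes none was at an unadjusted p under 0.05, with a median of 0.02. Of 14 glucocorticoid targets, 7 had the higher and 7 the lower mean, with a median of 0.0. Among them Ddit4 and Tsc22d3 differed by -0.41 ± 0.12 and -0.28 ± 0.1. Control mouse 2 was the highest control for both, at 10.29 and 9.3. Leaving out each mouse in turn, Tsc22d3 differed by between -0.36 and -0.16. Mt2 differed by 0.32 ± 0.13, or 0.18 without control mouse 1. Heat shock proteins had a median of -0.05, with 1 of 10 lower, or 0 without control mouse 1. Endothelium had 2 of 13 lower, Pecam1 and Eng, or 0 without control mouse 1, with a median of -0.03. The fibroblast, adipocyte, skeletal muscle and red cell lists had 0 members at an unadjusted p under 0.05, out of 14, 13, 11 and 3 measured. Beside these counts, 2.65% of all genes were higher and 3.32% lower at that p, or 1.55% and 1.66% without control mouse 1.

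**Figure D5:**
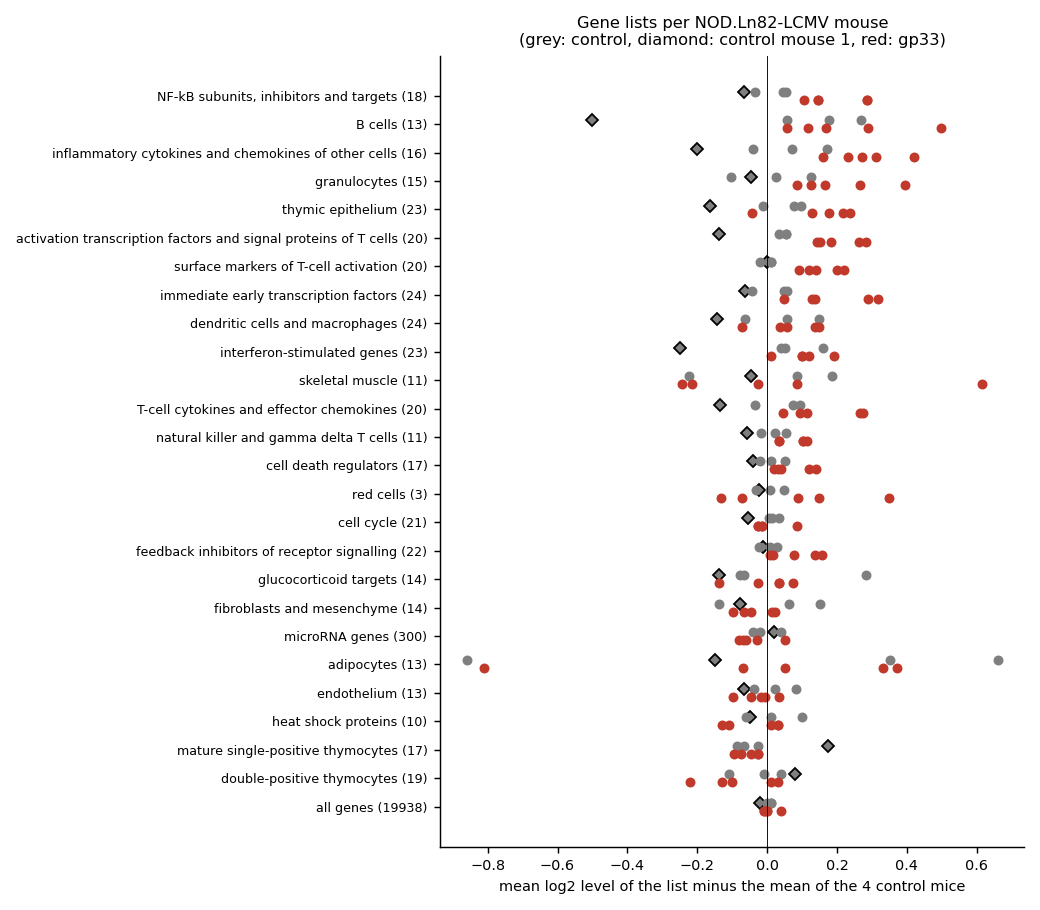
Mean log2 level of each gene list in each NOD.Ln82-LCMV mouse, as the difference from the mean of the 4 controls (x axis), with lists on the y axis and the number of measured genes in brackets; grey points are controls, the diamond is control mouse 1 and red points are gp33 mice. In the NF-κB list the 5 gp33 mice, 9.85 to 10.03, lie above the controls, 9.68 to 9.8, while for B cells control mouse 1 lies lowest, at 7.79.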

How the data were processed

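Total RNA of 15 thymuses was measured on whole-transcript arrays of Affymetrix, 1 array per mouse, and the design text calls the mice biological replicates. The deposited log2 values of 35556 probe sets were made by the authors with RMA in Affymetrix Expression Console 1.1, per the submitters' processing notes, and were used as deposited. RMA equalises the arrays' distributions, which removes shifts shared by most genes, and precision is limited by the count of arrays. Of the probe sets, 21789 had 1 symbol, 1621 several and 12146 no annotation. Each of 19938 genes was represented by its brightest probe set. limma 3.58.1 (R 4.3.3) fitted a mean per group over all 15 arrays with empirical Bayes variances (11 residual degrees of freedom) and two-sided tests. Calls were made where the Benjamini-Hochberg adjusted p was under 0.05. The same fit was tested on simulated data. Single genes were compared by exact permutation tests.

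The members and the 24 gene lists (401 of 439 listed genes measured) were chosen with earlier results of these data known. Named genes were Nfkbid, Cd69, the 15 higher and 15 lower genes with the smallest p, the 15 largest rises and 8 largest falls in NOD.LCMV, the members with the smallest p in each list, at most 3, and genes called under an alternative. Predicted, small RNA, olfactory and antigen receptor genes were left out of the p and size parts. Further list members, and genes marked so in the text, were named after their values were seen. Coordinates are those of RefSeq's GRCm38.p6, and the build of the array annotation is not given in the sources used here. The alternatives were 2 normalizations, a dim-gene filter (mean log2 under 6.917), 2 probe set rules, a variance trend, array weights, fewer groups, a 1.5-fold limit, a replicate block and leaving out each array.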

Additional observations from a re-analysis of the deposited data

Results flagged for a closer look

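In 49 of the 83 named genes the response of NOD.LCMV differed from that of NOD.Ln82-LCMV. The test was that of the difference in limma, at an adjusted p under 0.05, which 8.73% of all genes passed. The values are the response in NOD.LCMV minus that in NOD.Ln82-LCMV, on the log2 scale, and many of these genes were named for their size in NOD.LCMV. Among factors and signal proteins the difference was 2.5 for Tagap, 1.42 for Gem, 0.7 for Sh3bp2, 1.81 for Rasgef1b, 3.05 for Irf4, 1.94 for Nr4a1, 2.9 for Nr4a2, 3.13 for Nr4a3, 1.11 for Egr2 and 3.33 for Atf3. Among NF-κB genes the difference was 1.71 for Nfkbid, 1.39 for Relb, 1.39 for Rel and 1.09 for Birc3. Among surface and cytokine genes the difference was 1.51 for Cd69, 1.32 for Cd274, 2.4 for Tnfrsf9, 2.9 for Il1a, 3.34 for Il1b, 3.36 for Xcl1, 3.94 for Ccl3, 2.73 for Cxcl9 and 2.84 for Cxcl10. Among death, feedback and stress genes the difference was 1.29 for Bcl2l11, 2.66 for Gadd45b, 0.55 for Fas, 1.71 for Dusp5, 1.15 for Mt2 and 0.41 for Dnajb1. Among interferon, granulocyte and matrix genes the difference was 1.38 for Gbp3, 2.95 for Gbp5, 1.5 for Iigp1, 1.45 for Retnlg, 2.02 for Tnfaip2, 3.24 for Thbs1 and 3.05 for Ccn1. For Rnf121 it was 0.31. NOD.LCMV had the lower response for Lrrc66 (-0.32), Cpm (-1.04), Card6 (-1.14), Cd7 (-1.11), Gpr141b (-1.03), Itgae (-0.96), S1pr1 (-0.65), Foxo1 (-0.46), Prss16 (-0.33), Clec9a (-0.5), Pecam1 (-0.5) and Eng (-0.7).

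In 20 of 214 groups of NOD.Ln82-LCMV mice, over named genes and list means, a single mouse lay far from the others by Dixon's test, and chance gives about 1 in 20. The groups reuse the same mice and related genes, some named for a small p in these arrays. The count was therefore not tested against that rate. Among the controls the outlying mouse was control mouse 1 for Tagap (8.69), Cd274 (10.25), Smg1 (11.92), Baz2a (11.09), Nhlrc2 (9.69), Xcl1 (7.19), Tdrp (10.34), Klhl4 (8.15), Itgae (9.4), Tnfrsf9 (8.3) and Aurkb (11.66). It was another control for Pi16 (7.09). Among the gp33 mice a single mouse stood apart for Rhoh (11.11), Gbp5 (8.02), Gpr141b (8.5), Mylpf (7.42) and Tsc22d3 (8.52). For list means it was a control at 8.94 for activation factors and signal proteins, which was control mouse 1, a control at 9.75 for glucocorticoid targets, which was control mouse 2, and a gp33 mouse at 11.55 for cell cycle genes, which was gp33 mouse 1.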

How the results depend on the processing

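For the NOD.Ln82-LCMV response, 0 genes passed the adjusted threshold after median centring, with only the groups compared, with a 1.5-fold limit and with the replicate block, 4 passed with a variance trend and 4 with array weights, and 0 to 2 passed when each mouse was left out in turn. Cd69 was the call lost wherever the count was 0. The 528 genes higher at an unadjusted p under 0.05 became 327 after median centring, 999 with array weights, 3 with the 1.5-fold limit and 310 to 756 leaving out each mouse. The 662 lower became 995, 1288, 0 and 331 to 807 in the same order. The 3943 genes called in NOD.LCMV became 216 with the 1.5-fold limit, and the 1740 that differed between the strains became 3175 with array weights and 128 with that limit. Weights ran from 0.2815 for gp33 mouse 5 to 2.758 for control mouse 3. The cause of these changes was not tested. Of 2072 values of 83 named genes under the alternatives, 2046 kept direction and side of the threshold, 11 lost a call, 7 gained one and 8 turned direction. Those that turned were Cd7, to 0.07 with array weights, and Thbs1, to -0.02 after the second quantile normalization, to -0.01 after median centring, and between -0.05 and 0.04 leaving out each mouse. Genes called only under an alternative were Tagap, Il1a, Gem, Sh3bp2, Mir30e and Mir350. Of 598 list medians, 595 moved by less than 1 SD between mice.

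The replicate numbers did not pair the mice: mice sharing a number deviated together with correlations of 0.117, 0.00848, -0.0495 and -0.226, and 1 of the 4 numbers matched best with its own. With the replicate block 726 genes were higher and 836 lower at an unadjusted p under 0.05, 0 were called (Cd69 at an adjusted p of 0.132), and 1657 differed between the strains.

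Dim probe sets, among them Il1b, Retnlg and several microRNA genes, lie near the low end of the scale, where differences are compressed by an unmeasured amount.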
